A study of Mus musculus with 6 samples.

Results

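The 9 genes described here carry iron into the cell, store it, export it or sense it: Tfrc, Steap3, Slc11a2, Fth1, Ftl1, Ncoa4, Slc40a1, Ireb2 and Aco1. They were taken by name from a table of 22880 genes, and each name matched 1 row. RNA was sequenced from GFP-positive MC-38 cells, a mouse colon adenocarcinoma line, which had been injected into the cecum wall of C57BL/6J mice and were sorted from the resulting tumors as living cells negative for CD45 (on leukocytes) and CD31 (on endothelium). There were 3 Mock and 3 HIF-1α-KD libraries. Both kinds of cell had been transduced with the lentiviral vector pLKO.1-puro and neither had been passaged in vivo. The HIF-1α-KD cells (called knockdown cells) carried a stable knockdown of the hypoxia-inducible factor HIF-1α, and the mice kept normal HIF-1α in the stroma. The labels do not say whether a library came from 1 tumor, nor whether the knockdown line was 1 clone, so the p-values measure only the spread between these libraries.

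Iron reaches most cells on transferrin, which the transferrin receptor (Tfrc) takes into endosomes. There the reductase Steap3 converts the metal to its ferrous form, and the transporter DMT1 (Slc11a2) passes it to the cytosol. Spare iron is stored in ferritin, a shell of heavy (Fth1) and light (Ftl1) chains, and NCOA4 (Ncoa4) delivers ferritin to lysosomes so that the iron can be used again. Ferroportin (Slc40a1) is the known exporter. The iron regulatory proteins IRP1 (Aco1) and IRP2 (Ireb2) bind a hairpin called the iron-responsive element when iron is scarce, which blocks translation when the hairpin lies in the 5′ UTR and protects the transcript when it lies in the 3′ UTR. Transcript counts therefore report on only some of this control: for ferritin and ferroportin it acts largely on translation, which was not measured.

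These hairpins are shown because their place in a transcript bears on whether the iron regulatory proteins act on its level or on its translation. The search, on the sense strand of GENCODE protein-coding transcripts, asked for a C, 5 bases, the loop CAGTGN and 5 bases that pair with the first 5, G with T allowed. Of 21901 protein-coding genes, 294 (1.34%) held such a stretch in at least 1 transcript, and so did 4 of the 9 iron genes. A match describes the letters only. Positions are those of GRCm38, each line gives 5 bases on either side of the hairpin, and capitals mark the 6-base loop.
Tfrc site 1, 3′ UTR, chr16:32631220-32631246, plus strand: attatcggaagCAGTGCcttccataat
Tfrc site 2, 3′ UTR, chr16:32631599-32631625, plus strand: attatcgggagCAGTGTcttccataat
Tfrc site 3, 3′ UTR, chr16:32631664-32631690, plus strand: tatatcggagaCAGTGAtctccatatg
Tfrc site 4, 3′ UTR, chr16:32631711-32631737, plus strand: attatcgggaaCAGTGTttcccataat
Fth1, 5′ UTR, chr19:9982733-9982759, plus strand: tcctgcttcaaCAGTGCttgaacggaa
Ftl1, 5′ UTR, chr7:45459780-45459806, minus strand: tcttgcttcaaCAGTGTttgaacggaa
Slc40a1, 5′ UTR, chr1:45925466-45925492, minus strand: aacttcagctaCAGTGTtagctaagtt
Tfrc carried 4 such hairpins in the 3′ UTR, and both ferritin chains and ferroportin carried 1 in the 5′ UTR. Not every annotated coding transcript held them: 1 of 3 did for Tfrc, 4 of 5 for Fth1, 1 of 2 for Ftl1 and 1 of 4 for Slc40a1. The transcripts of Slc11a2, Ireb2, Aco1, Steap3 and Ncoa4 held none under this search, which asks for an unbroken upper stem.

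Between 19845852 and 30809139 reads per library fell on genes, the most in HIF-1α-KD replicate 1. Hif1a, the targeted gene, stood at 6914, 5424 and 4945 normalized counts in the Mock libraries, against 697.3, 3142 and 1928 after the knockdown, without overlap (limma adjusted p = 0.219). Of 9 genes checked for the HIF system, Bnip3, Pgk1, Ndrg1 and Slc2a1 fell (limma adjusted p between 0.0205 and 0.0254), Car9 was lower with an adjusted p of 0.0553, and Arnt, Vegfa and Epas1 did not pass either. Transcripts listed as markers of cell types were also counted, and whether tumor cells or other cells made them was not tested. Macrophage and monocyte markers (11 genes) summed to 5416 to 5916 normalized counts in Mock, to 3362 and 3660 in HIF-1α-KD replicates 1 and 2, and to 17067 in HIF-1α-KD replicate 3. Erythroid markers (7 of 8 genes in the table, with Slc4a1 below 3 in every library) summed to 622 to 1480 in Mock and to 130, 2.40 and 572 in HIF-1α-KD libraries, so the groups did not overlap. Colon epithelium markers (10 genes, Cdx2 below 3 throughout) summed to 198, 125 and 705 in Mock and to 107 to 154 in HIF-1α-KD libraries. Of these, Epcam was at most 37.5 and Krt8, the highest single value, 190.9 in Mock replicate 3. Of the fibroblast genes, Dcn and Pdgfra were at least 15050 and 3043, and Thy1 was at most 18.1. Neutrophil markers (5 genes, Mpo below 3) summed to 46.8 to 95.4 in Mock and 21.7 to 142 in knockdown libraries. Endothelial markers (6 genes, Cldn5 below 3) summed to 505 to 622 and 315 to 481, and the 5 fibroblast markers to 38645 to 93842 and 108981 to 218018, both without overlap. In each list 1 gene carried the separation, Cdh5 (endothelial) and Col1a1 (fibroblast): of the markers tested, 1 endothelial gene was lower and 2 were higher after the knockdown, and 2 fibroblast genes were lower and 2 higher. None of the markers tested had a limma adjusted p under 0.05, while an unadjusted p under 0.05, which 12.7% of all genes had, was found for 5 of 5 erythroid, 0 of 10 macrophage, 0 of 3 neutrophil, 1 of 3 endothelial, 1 of 4 fibroblast and 1 of 5 epithelial markers tested. In a bulk sample, fewer cells of a type and less RNA per cell cannot be told apart.

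Among the iron genes, light-chain ferritin was the one that differed most from Mock by its p-value: Ftl1 was 1.62-fold lower in HIF-1α-KD cells, and Slc11a2, the DMT1 transporter, was 1.36-fold higher. The other 6 iron genes tested differed by at most 1.28-fold, the value of Ncoa4. Fold changes were taken on the scale of log2(normalized count + 1). None of the 8 iron genes that passed the filter for low counts had an adjusted p-value under 0.05 (limma across all genes), a threshold that 0.391% of the 12014 genes tested passed (0.383% lower and 0.00832% higher after the knockdown). Unadjusted, 2 of the 8 had a p-value under 0.05, against 12.7% of all genes: Ftl1 on the lower side, where 5.69% of all genes were, and Slc11a2 on the higher side, with 7.04%. With a fold change of at least 1.5 required as well, 1 of the 8 remained, Ftl1, against 7.48% of all genes (3.46% lower, 4.02% higher). For Ftl1, Slc11a2 and Aco1 all libraries of one group lay above those of the other, 3 of 8 against 19.2% of all genes. Ftl1 was the 1 below Mock (8.75% of all genes), and Slc11a2 and Aco1 were the 2 above it (10.4%). The edgeR test on recovered reads also called 0 of the 8 (0.391% of all genes), and DESeq2 called 1, Ftl1 (2.36% of all genes, 1.56% on the lower side). The median log2 fold change of the 8 was -0.21, beside 0.02 over all genes tested. Slc40a1 did not pass the filter and was not part of this fit.

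**Figure D1:**
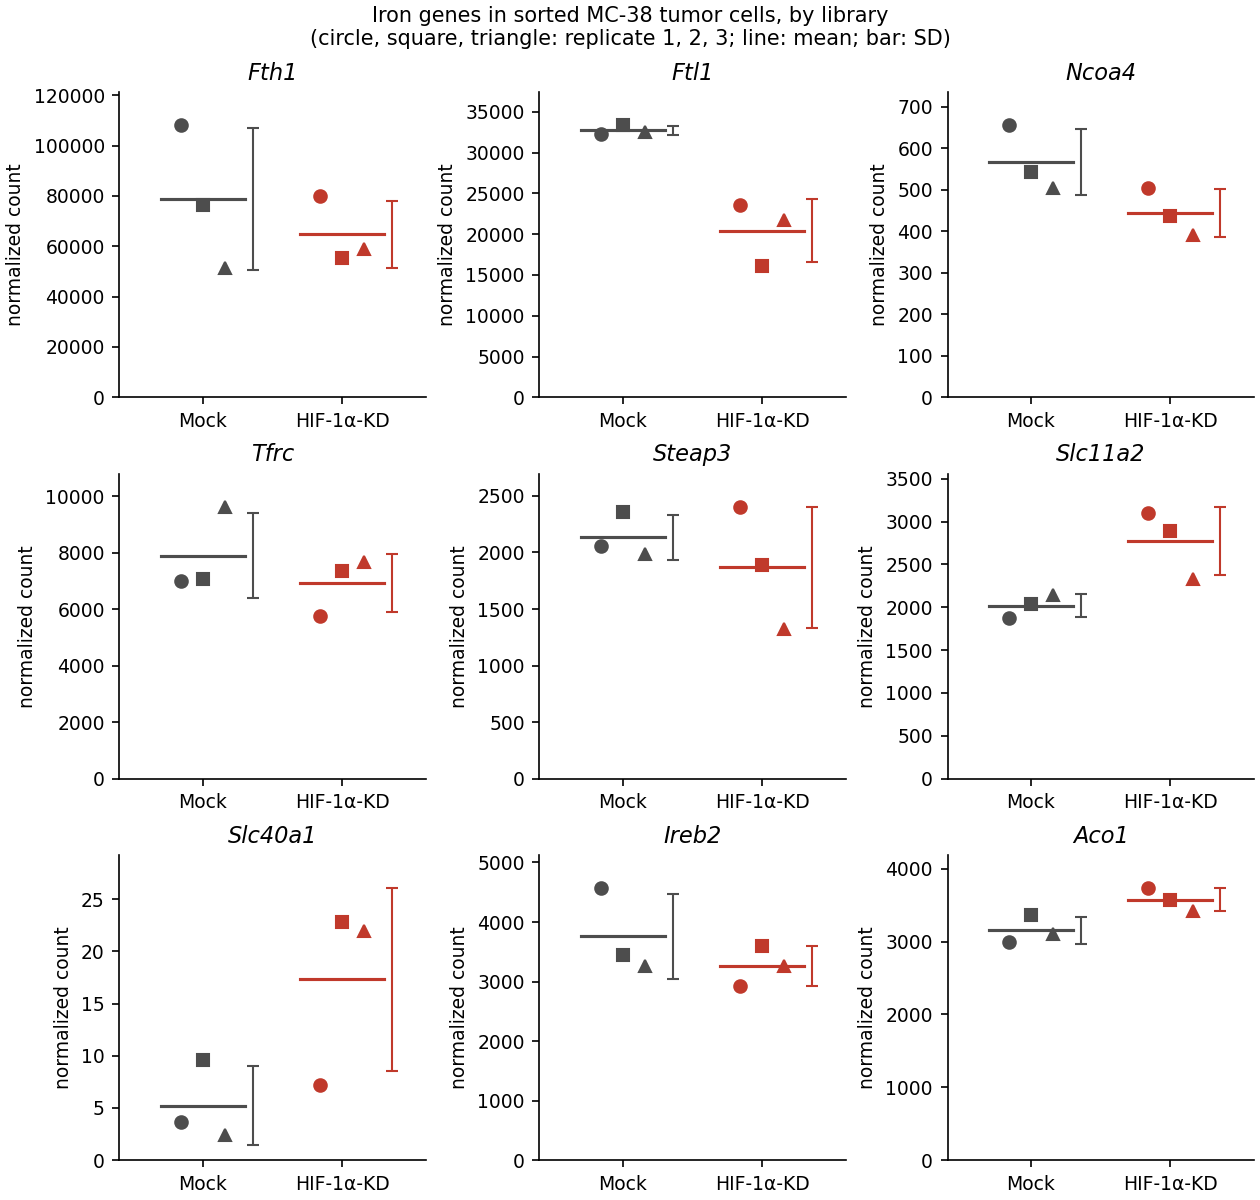
Normalized counts (linear axis from 0) of the 9 iron genes in each of 3 Mock and 3 HIF-1α-KD libraries, with the mean as a line and the SD as a bar. The Ftl1 libraries of the knockdown lie between 16070 and 23560, below the Mock libraries at 32250 to 33360, while the Fth1 libraries of the 2 groups overlap.

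Ftl1 (ENSMUSG00000050708, chromosome 7, 45457944 to 45459884, minus strand), the light chain that helps the ferritin core to mineralize, had normalized counts of 32250, 33360 and 32490 in Mock libraries. In HIF-1α-KD libraries it had 23560, 16070 and 21670. Every knockdown library thus lay below every Mock library, and the Mock libraries lay close together while the knockdown libraries spread. The mean was 32700 ± 584 (SD, n = 3) for Mock and 20433 ± 3895 (SD, n = 3) for the knockdown, which on the log2 scale differed by -0.70 with a standard error of 0.17 (limma adjusted p = 0.213, unadjusted p = 0.00294). The 95% confidence interval of the fold change was 0.471 to 0.807. Leaving out HIF-1α-KD replicate 2, the lowest library, brought the decrease to 1.45-fold, under the limit of 1.5. With all 6 libraries, DESeq2 gave an adjusted p of 0.0176. Of the 3 knockdown libraries, replicate 1 had the least Hif1a and the most Ftl1, and replicate 2 the most Hif1a and the least Ftl1. A relation between the remaining Hif1a and Ftl1 was not tested. The macrophage marker sum was above the Mock range in replicate 3 and below it in replicates 1 and 2, and its part in the Ftl1 values was not tested. Without replicate 3 the log2 fold change of Ftl1 was -0.75. A gene named Gm22133 lies within Ftl1 on the same strand, another named Gm10252 lies on the opposite strand over its start, and mouse ferritin genes have processed copies elsewhere in the genome, so the share of reads that the counting assigned to Ftl1 is uncertain.

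Fth1 (ENSMUSG00000024661, chromosome 19, 9980598 to 9985098), the heavy chain with the ferroxidase activity, had 108100, 76530 and 51530 normalized counts in Mock libraries and 79860, 55500 and 58770 in HIF-1α-KD libraries. The groups overlapped, and the Mock libraries alone spanned more than the whole knockdown group. On the log2 scale the difference was -0.24, with a standard error of 0.28 (limma adjusted p = 0.76), with a 95% confidence interval of the fold change from 0.550 to 1.31. Without Mock replicate 1, the highest library, it was 0.02, so even the direction rested on that library. The light chain was steady within Mock where the heavy chain was not, and the ratio of Fth1 to Ftl1 counts accordingly ran over 3.35, 2.29 and 1.59 in the Mock libraries, against 3.39, 3.45 and 2.71 after the knockdown. The ratio was 1.38-fold higher in HIF-1α-KD cells on average (log2 difference 0.46, two-sided exact permutation p = 0.2, adjusted over 4 ratios 0.267), so the 2 chains were not shown to differ in their response. With 3 libraries against 3, the smallest p that this exact test can give is 0.1. Together the 2 chains took 0.547%, 0.458% and 0.329% of the reads on genes in the Mock libraries, against 0.417%, 0.301% and 0.339% after the knockdown (two-sided exact permutation p = 0.3).

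Ncoa4 (chromosome 14, 32159865 to 32179855), the cargo receptor that brings ferritin to the lysosome, had 656.2, 543.6 and 503.7 normalized counts in the Mock libraries, against 505.1, 436.5 and 391.6 after the knockdown. The groups met at their edges, since the highest knockdown library was just above the lowest Mock library. On the log2 scale the difference was -0.35, with a standard error of 0.19 (limma adjusted p = 0.473), and the value stayed between -0.45 and -0.24 whichever library was left out.

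**Figure D2:**
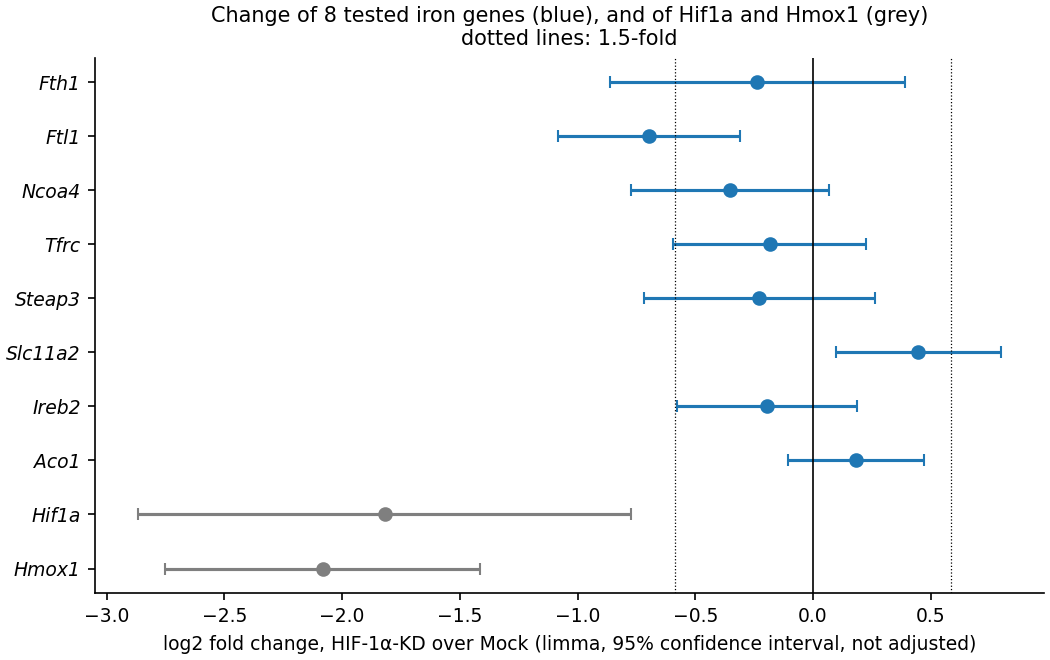
Log2 fold change of HIF-1α-KD over Mock with its 95% confidence interval (limma, not adjusted for multiple tests) for the 8 iron genes tested, in blue, and for Hif1a and Hmox1, in grey. The intervals of Ftl1 and Slc11a2 lie on one side of 0, those of the other 6 iron genes include it.

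Of the uptake genes, Tfrc (ENSMUSG00000022797, chromosome 16, 32608920 to 32632794) had 6986, 7061 and 9637 normalized counts in Mock libraries. In HIF-1α-KD libraries it had 5752, 7362 and 7663. HIF-1α-KD replicates 2 and 3 lay inside the Mock range, and the highest and the lowest value of all came from Mock replicate 3 and HIF-1α-KD replicate 1. On the log2 scale the difference was -0.18, with a standard error of 0.18 (limma adjusted p = 0.709), and the 95% confidence interval of the fold change, 0.663 to 1.17, leaves room for a decrease of about 1.5-fold. With a library left out the value lay between -0.26 and -0.03, the latter without Mock replicate 3, and it was -0.06 without HIF-1α-KD replicate 1. Measured against Fth1 within each library, Tfrc had log2 ratios of -3.95, -3.44 and -2.42 in the Mock libraries, against -3.80, -2.91 and -2.94 after the knockdown, with a difference of 0.05 between the means (two-sided exact permutation p = 0.9, adjusted 0.9). The sign of that difference turned when any of 4 libraries was left out.

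HIF-1 is known to act on DNA through the letters ACGTG or GCGTG, and Tfrc is a textbook target, so these letters are shown for Tfrc and for Ftl1, the iron gene with the smallest p-value. They were searched on both strands in RefSeq promoter windows of GRCm38 from 250 bases before to 50 after a start site, of which 7 of the 9 genes had at least 1. Either motif was in 7 of the 14 windows of these genes (50%) and in 43.8% of all 32851 windows, and ACGTG alone was in 19.6% of all windows. ACGTG also matches part of the E-box CACGTG. The Tfrc windows held 5 matches at different positions, of which the ACGTG is printed, and the Ftl1 window held 1. Capitals mark the match, which reads CACGC where GCGTG lies on the other strand.
Tfrc, chr16:32608884-32608908, plus strand: cggtaggtgtACGTGcggaaggaag
Ftl1, chr7:45459919-45459943, minus strand: gtctccgcctCACGCcaccgccgat
The windows of Tfrc and Ftl1 thus held the letters, as did some but not all windows of Fth1, Ncoa4 and Steap3. Those of Aco1 and Ireb2 did not, and the share over the group was near that of all promoters.

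Steap3 (chromosome 1, 120190757 to 120272705, minus strand), the endosomal ferrireductase, had 2056, 2362 and 1986 normalized counts in the Mock libraries, against 2398, 1887 and 1328 after the knockdown. The knockdown libraries enclosed the Mock libraries, with both the highest and the lowest value. On the log2 scale the difference was -0.23, with a standard error of 0.22 (limma adjusted p = 0.694). It was -0.00094 without HIF-1α-KD replicate 3 and -0.43 without HIF-1α-KD replicate 1. Slc11a2 (ENSMUSG00000023030, chromosome 15, 100387898 to 100425072, minus strand) had 1877, 2042 and 2142 normalized counts in Mock libraries and 3103, 2890 and 2325 in HIF-1α-KD libraries. All knockdown libraries lay above all Mock libraries, replicate 3 by the smallest margin. Its mean was 2020 ± 134 (SD, n = 3) for Mock and 2773 ± 402 (SD, n = 3) for the knockdown, which on the log2 scale differed by 0.45 with a standard error of 0.15 (limma adjusted p = 0.312, unadjusted p = 0.0178). The unadjusted p was over 0.05 without HIF-1α-KD replicate 1 (0.0655) and without HIF-1α-KD replicate 2 (0.0689). Slc11a2 is transcribed in forms with and without an iron-responsive element in the 3′ UTR, and the count per gene does not separate them.

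The exporter Slc40a1 (ENSMUSG00000025993, chromosome 1, 45908068 to 45926523, minus strand) was near the floor of detection. It had 3, 10 and 2 reads in Mock and 9, 19 and 19 reads in HIF-1α-KD libraries, or 3.693, 9.57 and 2.416 against 7.239, 22.78 and 21.95 normalized counts. HIF-1α-KD replicates 2 and 3 held more than any Mock library, and replicate 1, the deepest library, held less than Mock replicate 2. The difference of the mean log2 value was 1.58 with a pseudocount of 1, a figure that depends on the pseudocount at such counts. When genes with few reads were kept, limma gave it an adjusted p of 0.42 and an unadjusted p of 0.0334. Ferroportin is known to be abundant in macrophages. The macrophage marker sum was 3660 in HIF-1α-KD replicate 2 and 17067 in replicate 3, and its part in the Slc40a1 values was not tested.

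Of the iron regulatory proteins, Ireb2 (chromosome 9, 54863789 to 54912530) had 4572, 3453 and 3255 normalized counts in the Mock libraries, against 2925, 3594 and 3265 after the knockdown. The groups overlapped, and Mock replicate 1 stood above the other 5 libraries. On the log2 scale the difference was -0.19, with a standard error of 0.17 (limma adjusted p = 0.666) and -0.04 without Mock replicate 1. Aco1 (chromosome 4, 40143081 to 40198338), whose product doubles as the cytosolic aconitase when it holds an iron-sulfur cluster, had 2994, 3366 and 3102 normalized counts in the Mock libraries, against 3737, 3568 and 3424 after the knockdown. The groups did not overlap, but the gap between them was small, and on the log2 scale the difference was 0.18, with a standard error of 0.13 (limma adjusted p = 0.584). The ratio of Ireb2 to Aco1 was 1.53, 1.03 and 1.05 in the Mock libraries, against 0.783, 1.01 and 0.954 after the knockdown. Every Mock ratio was above every knockdown ratio, the log2 difference was -0.38, and the exact permutation p of 0.1 (two-sided, adjusted 0.267) is the smallest that the design allows. The ratio of Slc40a1 to Tfrc had a log2 difference of 1.99 with overlap of the groups (two-sided exact permutation p = 0.2, adjusted 0.267).

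**Figure D3:**
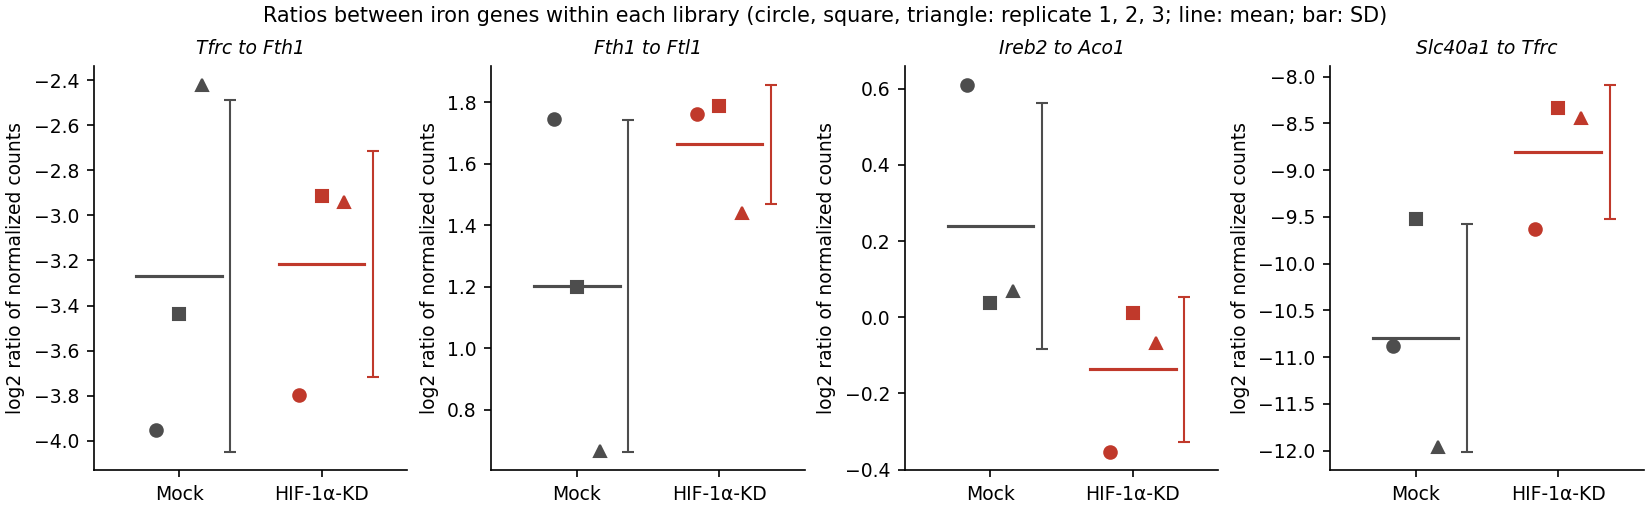
Log2 ratios of normalized counts between 2 iron genes within each library, with the mean as a line and the SD as a bar. For Ireb2 to Aco1 the Mock libraries lie from 0.04 to 0.61 and the knockdown libraries from -0.35 to 0.01, and the other 3 ratios overlap between the groups.

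Compared per length, the ferritin chains stood far above the rest. By the deposited FPKM, Fth1 (mean 3359 ± 923, SD over the 6 libraries) had the 10th highest level of the table and Ftl1 (1329 ± 337) the 78th. Tfrc followed at 153 ± 24.9, Aco1 at 98.0 ± 10.5, Slc11a2 at 73.0 ± 15.9, Steap3 at 27.1 ± 5.14, Ireb2 at 24.6 ± 3.61 and Ncoa4 at 11.2 ± 1.76 FPKM. Slc40a1 was last at 0.310 ± 0.253. In this order, the libraries of Aco1 overlapped with those of Slc11a2 and the libraries of Steap3 with those of Ireb2, and the other neighbours did not overlap. The width that the deposited values divide by was between 30.4% and 101% of the longest coding transcript, and 1400 bases for Aco1 against 5810 for Ireb2. Per length of the longest coding transcript, an alternative chosen after the widths were seen, Ireb2 came in place 5, Slc11a2 in place 6 and Steap3 in place 7, and the other places were the same. Neighbours then overlapped for Fth1 and Ftl1, Aco1 and Ireb2, Ireb2 and Slc11a2, and Slc11a2 and Steap3.

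**Figure D4:**
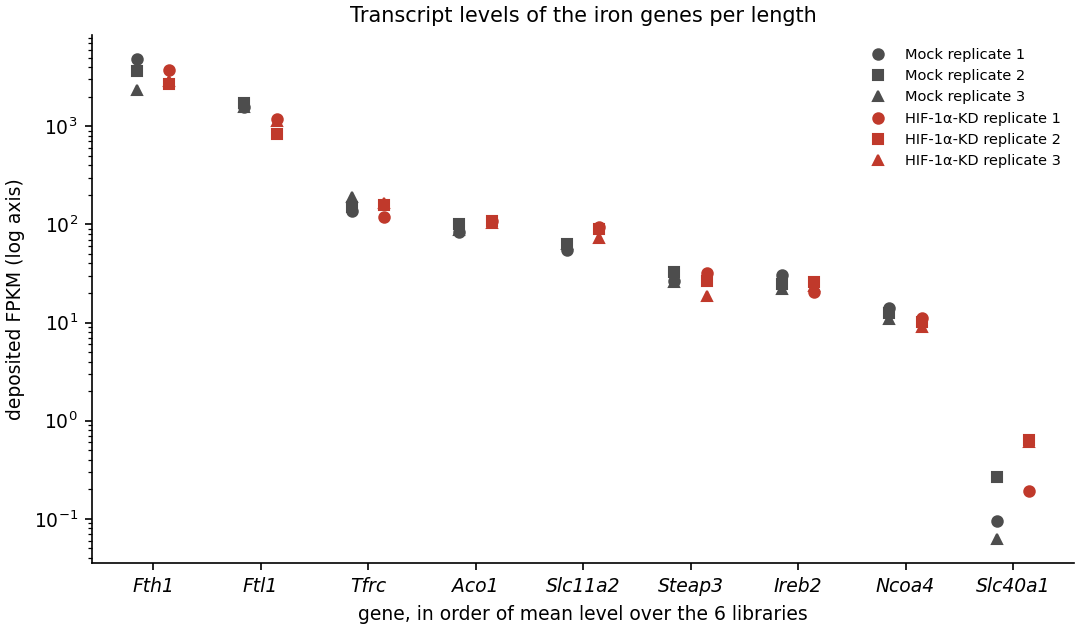
Deposited FPKM of the 9 iron genes in each library (log axis), ordered by the mean over the 6 libraries. The ferritin chains Fth1 and Ftl1 lie above 800 FPKM in every library, and Slc40a1 lies below 1 FPKM in every library.

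Other genes of iron handling were counted from lists of uptake, storage, export, sensing, hepcidin control, mitochondrial iron and iron-sulfur assembly, and heme. Together they held 88 gene symbols, with some genes under both an older and a newer symbol. Of these symbols, 84 matched a row of the table and 74 were tested. Only 1 of the 74, Hmox1, had an adjusted p-value under 0.05 (limma), against 0.391% of all genes, and 5 met the criterion of an unadjusted p under 0.05 and at least 1.5-fold (7.48% of all genes): Hmox1, Abcg2 and Alas2 lower, Herc2 and Epas1 higher. Without a mean-variance trend, or with a pseudocount of 0.1, only Hmox1, Abcg2 and Herc2 met it. With edgeR or DESeq2 these 3 and Cp met it, and Alas2 and Epas1 did not. The median log2 fold change of the 74 was -0.05. Hmox1 encodes heme oxygenase 1, which opens the heme ring and frees its iron. It had 11590, 6914 and 7116 normalized counts in the Mock libraries, against 1757, 1433 and 2982 after the knockdown, and even the highest knockdown library was far below the lowest Mock library. It fell 4.23-fold (on the log2 scale -2.08, with a standard error of 0.29, limma adjusted p = 0.0281). The adjusted p was over 0.05 when any library but HIF-1α-KD replicate 3 was left out (0.0523 to 0.109), at 3.58- to 4.64-fold, and with all 6 libraries it was 0.112 in limma without a mean-variance trend. Macrophages that clear red cells are known to express Hmox1. The erythroid marker sum was lower in every knockdown library, and its part in the result was not tested. HIF-1α-KD replicate 3, with the highest macrophage sum, had the most Hmox1 of its group, and without it Hmox1 was 5.22-fold lower.

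Over all genes tested, 5682 had a log2 fold change below 0 and 6332 above it. Of 13 heme genes tested, 9 were below 0 and 4 above. Beside Hmox1, only Alas2, the erythroid enzyme that begins heme synthesis, met the criterion of p and fold, with 72.6, 21.1 and 41.1 normalized counts in the Mock libraries, against 4.02, 0 and 34.7 after the knockdown (log2 fold change -2.86, limma adjusted p = 0.375). Alas2 is itself one of the erythroid markers given above. The 11 other uptake genes tested held 5 values above 0 and 6 below, and the smallest p-value was that of the ferrireductase Steap2 (log2 fold change -0.48, limma adjusted p = 0.384). In the 5 storage and chaperone genes tested, Herc2, a ubiquitin ligase known to act on NCOA4, met the criterion with 1001, 1650 and 1191 normalized counts in the Mock libraries, against 2443, 1809 and 1703 after the knockdown (1.56-fold higher, limma adjusted p = 0.312). Herc2 did not meet it without Mock replicate 1, without Mock replicate 3 or without HIF-1α-KD replicate 1. The 4 export and ferroxidase genes tested were all below 0, with Heph at -0.05. Heph had 52.9, 31.6 and 44.7 normalized counts in the Mock libraries, against 3.22, 136.7 and 124.8 after the knockdown. Abcg2, an exporter of porphyrins and heme, met the criterion with 326.2, 247.9 and 393.8 against 58.7, 190.7 and 147.9 normalized counts, without overlap (log2 fold change -1.41, limma adjusted p = 0.27).

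Of the 9 other sensing genes and iron-responsive transcripts tested, Epas1, which encodes HIF-2α, had 25.9, 90.9 and 71.3 normalized counts in the Mock libraries, against 117.4, 129.5 and 97.0 after the knockdown, without overlap and at a low level (log2 fold change 1.03, limma adjusted p = 0.393). Of the 4 hepcidin-control genes tested, Neo1, a receptor for hemojuvelin, had the smallest p-value (log2 fold change 0.50, limma adjusted p = 0.339). All 29 genes of mitochondrial iron and iron-sulfur assembly were tested, and 0 had an adjusted p under 0.05 (limma, 0.391% of all genes), 0 met the criterion of p and fold (7.48%) and 0 had an unadjusted p under 0.05 (12.7%). Their median log2 fold change was -0.03, with 10 values above 0 and 19 below, beside 6332 above and 5682 below over all genes. The smallest p-value was that of the co-chaperone Hscb (log2 fold change -0.47, limma adjusted p = 0.434). Fthl17, a relative of the ferritin heavy chain, had no read in any library.

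**Figure D5:**
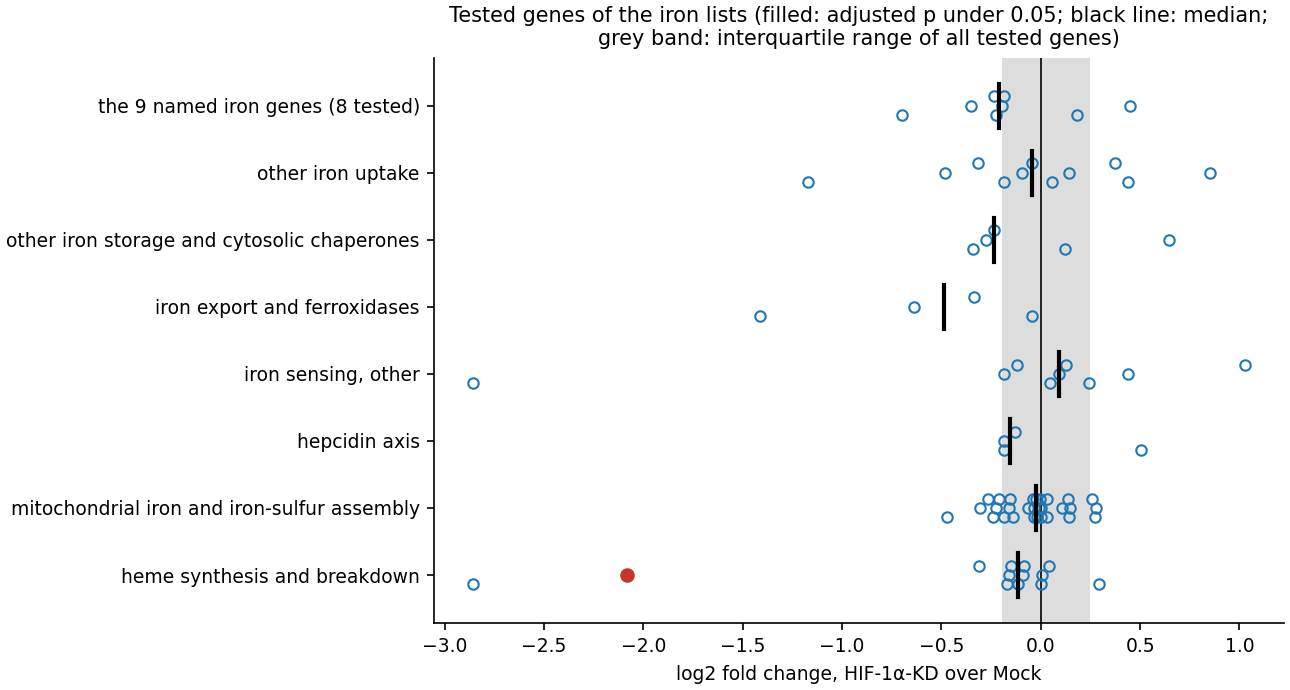
Log2 fold change of HIF-1α-KD over Mock for each tested gene of the iron lists, with the list median as a black line and the interquartile range of all 12014 tested genes as a grey band from -0.19 to 0.24. Hmox1 at -2.08 is the filled point, the one gene with an adjusted p-value under 0.05 (0.112 without a mean-variance trend), and Alas2 at -2.86 appears in both the sensing and the heme list.

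The genes with the profile nearest to 3 of the iron genes were sought over the 6 libraries, by the root mean square difference of log2 values after each gene was centred on its mean. Nearest to Tfrc were Gtf3a (0.04), Nradd (0.05) and Siah2 (0.05), where the spread of Tfrc about its own mean was 0.22. Nearest to Fth1, whose own spread was 0.37, were Efcab2 (0.06), the heme transporter gene Slc48a1 (0.07) and Carf (0.08). Slc48a1 had 5042, 3793 and 2457 normalized counts in the Mock libraries, against 3616, 2580 and 2514 after the knockdown, highest and lowest in the same libraries of Mock as Fth1. Nearest to Slc40a1, with an own spread of 1.05, were Gper1 (0.27), Uchl1 (0.33) and Pet2 (0.34), which all had at most 61.2 normalized counts in any library.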

How the data were processed

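Single-end reads were trimmed by the authors, aligned (STAR), assigned to genes (featureCounts) and analysed with DESeq2, per the methods of the paper, where GRCh38 is given as the genome. The labels give GRCm38 (with STAR and edgeR), and the genes carry mouse Ensembl identifiers. The library kit keeps strand according to the methods, but the strand setting of the counting is not given in the sources used here. The authors deposited normalized counts, a signal in which each count was divided by 1 factor per library and printed to 4 significant digits, and FPKM values per kilobase of the deposited gene width. The deposited GC fraction was not used, nor were the log2 ratio, p-value and false discovery rate of the authors' own fit. No batch is named in the labels.

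Reads were recovered by removing the factor, and 100% of values up to 300 reads were whole within 0.1. filterByExpr (edgeR 4.0.16, minimum count 10, by group) kept 12014 genes. Log2 of the normalized count plus 1 was fitted with limma 3.58.1 with a mean-variance trend, without a covariate, and p-values were adjusted over these genes by the method of Benjamini and Hochberg. All p-values are two-sided. edgeR and DESeq2 1.42.0 on recovered reads were alternatives, as were other scalings, filters, pseudocounts (0.1 and 10), no trend, a replicate block and leaving out each library. The fits were tested on simulated data. Ratios between genes were compared by exact permutation (scipy 1.17.1). Positions and transcripts came from GENCODE M21, promoters from RefSeq, both of GRCm38.

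The genes named are the 9 iron genes, Hif1a, Hmox1, in each other list those past either criterion or else that with the smallest p, and the 3 nearest profiles of Tfrc, Fth1 and Slc40a1. Genes of the HIF system, single cell type markers, Cp, Heph, Fthl17 and genes that overlap Ftl1 are named outside this rule. The markers, Cp and Heph were named after their values were seen. The iron genes and lists, and the markers of erythroid, macrophage, neutrophil, endothelial, fibroblast and epithelial cells, were chosen with earlier results of these data known. One marker gene is not reported here by name.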

Additional observations from a re-analysis of the deposited data

How the results depend on the processing

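Each of the 8 tested iron genes kept its direction and its side of the adjusted threshold in the 15 alternatives, except that DESeq2 called Ftl1 and that the log2 fold change of Fth1 turned to 0.024 without Mock replicate 1 (range with a library left out -0.51 to 0.024). So 1 iron gene was called by DESeq2 in place of 0, and 0 with any library left out. By p and fold, 2 were called without the filter (Ftl1 and Slc40a1) and 0 to 1 with a library left out. Genes called in all numbered 283 with DESeq2, 1 without trend and 0 with the replicate block, and 0 to 37 with a library left out, against 47, with 0 without Mock replicate 3 and without HIF-1α-KD replicate 2. By p and fold they numbered 899, with 559 (without Mock replicate 1) to 1098 with a library left out and 1145 without the filter. Of the other iron genes, the adjusted calls were 2 with DESeq2 (Abcg2 and Hmox1), 0 without trend, 0 with the block and 0 to 1 with a library left out. By p and fold there were 3 with a pseudocount of 0.1, 3 without trend, 4 with edgeR or DESeq2, 6 with a pseudocount of 10 or the block, 7 without the filter and 3 to 6 with a library left out, in place of 5. The adjusted p of Hmox1 was 0.112 without trend and 0.0710 with the block (limma). The cause was not tested. The log2 difference of the ratio of Tfrc to Fth1 lay between -0.29 and 0.48 with a library left out, below 0 in the 4 runs without Mock replicates 1 (-0.29) and 2 (-0.03) and HIF-1α-KD replicates 2 (-0.10) and 3 (-0.09), that of Fth1 to Ftl1 between 0.19 and 0.73, that of Ireb2 to Aco1 between -0.48 and -0.19 and that of Slc40a1 to Tfrc between 1.40 and 2.62. The ferritin share differed by -0.15 to -0.04 percentage points. Same-numbered libraries did not deviate together (correlations -0.14, -0.12 and 0.02), so the numbers were not taken as pairs. At 2 to 19 reads a library, Slc40a1 is limited by depth.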
